A study of Homo sapiens with 2 samples.

Results

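Of 1751 DAC-treated HCT116 cells profiled by scRNA-seq, 164 cells had 10 or more UMIs of the *VCX* genes. These VCX-high cells were chosen by the sum over *VCX*, *VCX2*, *VCX3A*, and *VCX3B*, so that their level of the 4 genes describes the choice and was not tested. They made up 9.37% of the DAC-treated cells (95% interval, 8.04–10.8%), and the whole series held 3534 cells. None of the 1783 mock-treated cells had 10 UMIs, which allows a share of up to 0.207%. Intervals are exact Clopper-Pearson intervals for shares and exact conditional intervals for ratios, and cover counting error only.

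HCT116 cells are a line from a human colon cancer, and DAC (5-aza-2′-deoxycytidine, decitabine) is a cytidine analog that depletes DNA methyltransferases. DAC was given at a dose of 0.5 µM on days 1 and 3, fresh medium was supplied on day 5, and cells were harvested on day 7. Mock-treated cells of the same line were kept on the same schedule without DAC. Each condition was 1 library of the 10x 3′ type, in which a unique molecular identifier (UMI) marks each captured RNA molecule near its poly(A) end. Cells of 1 library are not replicates, so values are given without a test between cells.

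The *VCX* genes (variable charge, X-linked) are a family of near-identical genes in Xp22.3, with the related *VCY* genes on the Y chromosome. They are normally transcribed in male germ cells and belong to the genes called cancer-testis genes, which are silent in most somatic tissues and are found active in some tumors. Many X-linked cancer-testis genes, such as those of the MAGE, GAGE, and PAGE families, are kept silent by promoter methylation and respond to demethylating drugs.

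On hg38 (GENCODE release 44), *VCX3A* lies at X: 6533618–6535118 on the minus strand, *VCX* at X: 7842262–7844143 on the plus strand, *VCX2* at X: 8169944–8171267 on the minus strand, and *VCX3B* at X: 8464830–8466510 on the plus strand. The 4 genes were thus spread over 1933 kb. The sequences shown here are the 200 bases just before exon 2 of the transcript that starts at each gene's annotated start, because they show how alike the 4 genes are close to where their transcripts start. They lie in intron 1, overlap no annotated exon, and are read from the hg38 genome on the strand of the gene, with CG dinucleotides, the sites of DNA methylation, in capitals.

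VCX (chrX:7842858-7843057, plus strand): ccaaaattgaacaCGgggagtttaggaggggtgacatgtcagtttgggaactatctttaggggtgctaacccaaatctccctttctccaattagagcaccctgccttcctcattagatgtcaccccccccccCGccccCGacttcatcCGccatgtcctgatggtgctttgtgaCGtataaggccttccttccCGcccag

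VCX2 (chrX:8170790-8170989, minus strand): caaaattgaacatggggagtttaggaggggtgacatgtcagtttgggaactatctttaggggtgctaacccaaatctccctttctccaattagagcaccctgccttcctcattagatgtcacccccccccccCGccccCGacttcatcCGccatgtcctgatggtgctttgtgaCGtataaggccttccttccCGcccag

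VCX3A (chrX:6534644-6534843, minus strand): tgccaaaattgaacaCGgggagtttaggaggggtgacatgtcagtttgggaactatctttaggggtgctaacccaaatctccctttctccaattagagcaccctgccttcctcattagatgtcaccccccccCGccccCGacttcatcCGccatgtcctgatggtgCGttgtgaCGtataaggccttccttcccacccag

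VCX3B (chrX:8465105-8465304, plus strand): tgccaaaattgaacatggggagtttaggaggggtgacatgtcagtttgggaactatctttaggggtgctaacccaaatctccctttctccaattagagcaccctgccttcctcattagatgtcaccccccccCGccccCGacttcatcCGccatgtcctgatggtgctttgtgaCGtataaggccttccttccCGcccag

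The window of *VCX* was 98.5% identical to that of *VCX2*, 97.0% to that of *VCX3A*, and 97.5% to that of *VCX3B*. *VCX* and *VCX3A* had 6 CG dinucleotides each, and *VCX2* and *VCX3B* had 5 each. Of 35116 RefSeq promoters, 58.6% had 6 or more and 62.3% had 5 or more CG dinucleotides in the 200 bases before their start, so these windows were not rich in CG beside promoters. The windows lie in intron 1, and the CG content of the *VCX* promoters was not measured. The 3′ ends, which are the part that is counted, were alike as well. Of the 90-base windows in the last 500 bases of each transcript, 59.3% for *VCX3B*, 45.4% for *VCX*, 42.6% for *VCX2*, and 18.9% for *VCX3A* were found in no other *VCX* or *VCY* transcript. Cell Ranger keeps a read only where it maps to 1 gene, so molecules of the 4 genes may be lost or assigned to a paralog, and the split between paralogs is uncertain. The sum over the family is less affected by the assignment.

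The *VCX* UMIs were concentrated in few cells. VCX-high cells held 13699 of the 14407 *VCX* UMIs of the DAC-treated library (95.1%), whereas the mock-treated library had 1 *VCX* UMI, assigned to *VCX3A*. Of the 1751 DAC-treated cells, 1173 had no *VCX* UMI, 292 had 1, 72 had 2, 50 had 3 to 9, 68 had 10 to 39, and 96 had 40 or more. If each cell had received UMIs of the family in proportion to its depth, 293 cells would have been without one. Members had 10 to 843 *VCX* UMIs, with a median of 49 and quartiles of 22.8 and 88. The 12 cells just outside the threshold, with 8 or 9 *VCX* UMIs, had a median of 27550 total UMIs, and the 10 cells just inside, with 10 to 13, had a median of 46339.

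Since a threshold in UMIs favors deeply sequenced cells, cells were compared at equal depth. The 1293 DAC-treated cells with 10000 or more UMIs were each thinned at random to 10000 UMIs, and 158 of the 164 members were among them (12.2% of these cells, 10.5–14.1%). The cells compared with them, VCX-none cells, were the 819 cells of this depth without any *VCX* UMI before thinning. At 10000 UMIs, 1041 of the 1293 cells had no *VCX* UMI, where an even share of the UMIs would have left 113. Of the 252 cells with a UMI, 102 had 1 or 2, 53 had 3 to 9, 79 had 10 to 39, and 18 had 40 or more, up to 224. The 158 members had a median of 11 (quartiles 6 and 23), 16 members had fewer than 3, and 2 had none. There were 86 cells at 1 UMI, 16 at 2, 17 at 3 or 4, 36 at 5 to 9, 47 at 10 to 19, and 32 at 20 to 39, and since these classes grow in width, neither a second peak nor its absence is read from them. How many of the cells at 1 UMI held only free RNA of the library was not measured. Of the cells with a UMI, 21.0% had 3 to 9, and 37.1% had 3 to 9 when cells were thinned to 5000 UMIs.

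**Figure D1:**
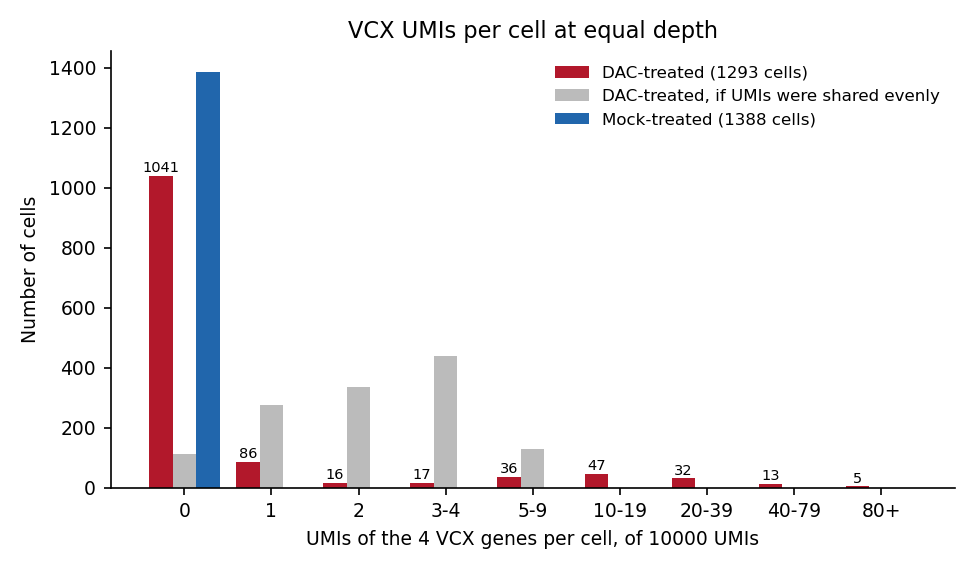
Number of cells (vertical axis) by the UMIs of the 4 *VCX* genes per cell after thinning to 10000 UMIs (horizontal axis), in classes of growing width, for 1293 DAC-treated cells, for the same cells if the UMIs were shared evenly (gray), and for 1388 mock-treated cells of the same depth. The DAC-treated cells had 1041 cells at 0 and 97 cells at 10 or more, and all mock-treated cells were at 0.

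Members were sequenced slightly more deeply than VCX-none cells. The median of total UMIs was 47155.5 in the 158 VCX-high cells and 42430 in VCX-none cells, the median mitochondrial share of UMIs was 21.21% and 19.05%, and the median number of detected genes was 6751 and 6348. Of the 164 members, 88 had more than 20% and 4 had more than 50% mitochondrial UMIs. Among the 5% of DAC-treated cells with the most UMIs were 9.15% of the members and 5.13% of VCX-none cells, and droplets with 2 cells of the same line cannot be recognized by a marker. The libraries shared 12 barcodes, of which 1 was a member and 2 were VCX-none cells. Epithelial keratin genes were detected in both groups. *KRT18* was detected in 99.4% of VCX-high and 99.1% of VCX-none cells, *KRT8* in 95.6% and 98.7%, and *EPCAM* in 69.6% and 79.4%. The intestinal genes *CDX1*, *VIL1*, and *CDH17* were near 0, being detected in at most 1.27% of either group, and *CDX2* was detected in 10.1% and 8.79%. Of the 21 markers of other cell types, the summed level was 0 to 1 UMI per cell between the quartiles in both groups, with a mean of 0.791 in VCX-high and 0.442 in VCX-none cells. *PTPRC*, found on all leukocytes, was detected in 1.27% and 0.244%, *HBB* in none and 0.122%, and *COL1A1* in 24.1% and 14.0%. The part of these markers in the differences described here was not tested.

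Within the members, *VCX3B* and *VCX3A* were the genes that were nearly always detected. *VCX3B* had UMIs in all 164 members, from 4 to 480 with a median of 26.5. *VCX3A* had UMIs in 163 members (99.4%), from 0 to 287 with a median of 19. *VCX* had UMIs in 136 members (82.9%, 76.3–88.3%), from 0 to 31 with a median of 3. *VCX2* had UMIs in 40 members (24.4%, 18.0–31.7%), from 0 to 74 with a median of 0. With a threshold of 3 UMIs for each gene in a cell, 73 members passed for *VCX3A* and *VCX3B* alone, 69 had both with *VCX*, 16 had all 4 genes, 4 had both with *VCX2*, 1 had *VCX2* with *VCX3B*, and 1 had *VCX3B* alone. These combinations moved with the number of UMIs caught, so a gene under the threshold is not read as off. *VCX* took 4.66% of the UMIs of the members, the 79 members under the threshold for *VCX* had a median of 22 UMIs of *VCX3A* and *VCX3B*, and the 85 members that passed had a median of 79. All of the 36 members with 100 or more UMIs of the family had a *VCX* UMI.

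*VCX3B* took somewhat more UMIs than *VCX3A* in most members, within the uncertainty of assigning reads to paralogs. The share of *VCX3B* among the UMIs of both had a median of 58.0% and quartiles of 52.2% and 64.3%, and ranged from 31.6% to 100% over the 164 members. In the 90 members with 40 or more UMIs of both genes together, the median was 58.2%, and the share ranged from 42.6% to 89.1%. In these 90 members the quartiles of the share were 54.7% and 61.7%, and its variance was 2.43 times that of binomial sampling. How much of this excess came from few outlying cells or from the assignment of reads was not tested.

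**Figure D2:**
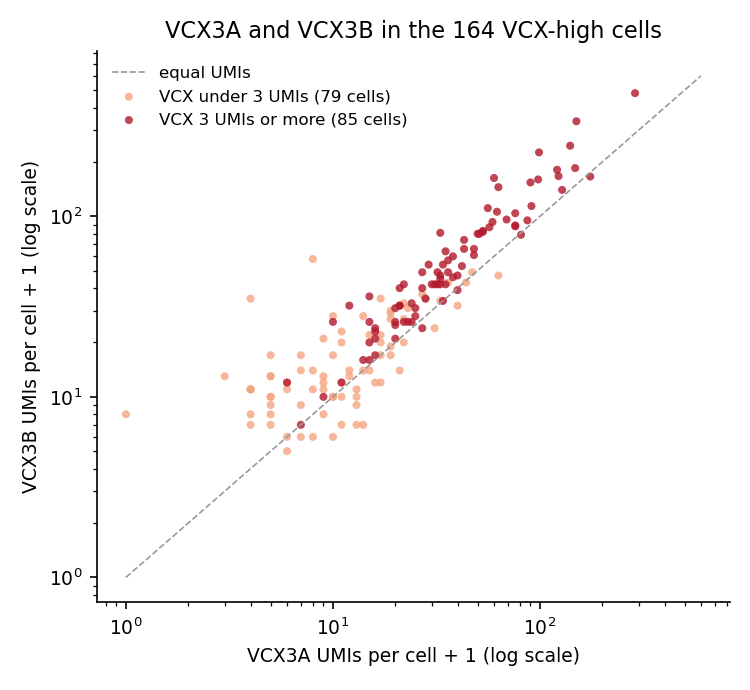
UMIs of *VCX3A* (horizontal axis) and *VCX3B* (vertical axis) per cell, each plus 1 and on log scales, in the 164 VCX-high cells, with the 85 cells that had 3 or more *VCX* UMIs in dark red. The dashed line marks equal UMIs, and *VCX3B* took a median of 58.0% of the UMIs of both genes.

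The UMIs of the 364 cells with only 1 or 2 *VCX* UMIs were split between the paralogs much as those of the members. These 436 UMIs were assigned to *VCX3B* in 51.8%, *VCX3A* in 37.6%, *VCX* in 6.19%, and *VCX2* in 4.36%, and the UMIs of members in 54.9%, 37.3%, 4.66%, and 3.17%. Free RNA from the members, which held 95.1% of the *VCX* UMIs, would have these shares as well, and its amount was not measured, so the 364 cells are not read as cells that transcribe the genes.

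The listed neighboring genes of Xp22.3 that could be measured did not reach a 2-fold ratio. Of 20 genes listed, 6 were detected in 10% or more of the cells of either group, and the ratios of their mean UMIs in VCX-high to VCX-none cells were all within 2-fold. Under this filter, 2.36% of all genes were 2-fold or more higher and 1.11% lower. *PNPLA4*, a lipase gene that lies next to *VCX*, had a log2 ratio of 0.06 (-0.58 to 0.66), with 28 UMIs in 158 VCX-high and 139 UMIs in 819 VCX-none cells at equal depth. *PUDP*, a phosphatase gene that lies between *VCX3A* and *VCX*, had 0.30 (-0.53 to 1.05) and passed the filter only through VCX-high cells, and *TBL1X*, a corepressor gene beyond *VCX3B*, had 0.45 (-0.10 to 0.98). *PRKX*, *MSL3*, and *MID1* had 0.17, 0.39, and -0.33, and all 6 intervals included 0. The highest upper limit was 1.06, for *MSL3*. When cells were thinned to 5000 UMIs, the sign was opposite for 4 of the 6 genes, with -0.35 for *MSL3*, 0.62 for *MID1*, -0.05 for *TBL1X*, and -0.19 for *PRKX*. Each of the 6 changed sign under at least 1 setting, and over all settings their log2 ratios were between -0.38 (*MID1*) and 0.82 (*TBL1X* and *PUDP*). *DHRSX* and *ASMTL*, which are not on the list and lie in the pseudoautosomal region at the end of Xp, were past 2-fold and are described below.

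Across all genes, VCX-high cells differed from VCX-none cells in few genes beyond the *VCX* family. Of 7695 genes detected in 10% or more of VCX-none cells, 71 (0.923%) were 2-fold or more higher and 92 (1.2%) were 2-fold or more lower in VCX-high cells at equal depth. When genes detected in 10% or more of the cells of either group were counted, 196 of 8288 (2.36%) were higher and 92 (1.11%) were lower. The second count holds genes that passed only through VCX-high cells, where they had to be detected in a larger share of cells, so the first count is used below wherever a share is read. The first count in turn holds genes that passed only through VCX-none cells, which favors lower ratios, so its shares of higher and lower genes are not compared. The median log2 ratio of the 7695 genes was 0.04. Without thinning, on UMIs summed over each group, 46 of the 7695 genes were higher and 20 were lower, and 102 of the 8288 genes were higher.

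X-linked genes that were silent in mock-treated cells stood out. A gene is called silent here when it had 2 or fewer UMIs in each mock-treated cell. The 488 X-linked silent genes other than *VCX* genes together had a mean of 26.1 UMIs per VCX-high cell and 8.91 UMIs per VCX-none cell, a ratio of 2.93, at 10000 UMIs per cell. The median was 20.5 UMIs in VCX-high, 5 in VCX-none, and 2 in mock-treated cells, and this sum uses no filter on detection. The 13372 autosomal silent genes had a mean of 137 UMIs per VCX-high and 104 UMIs per VCX-none cell, a ratio of 1.32. In mock-treated cells, the mean was 1.78 UMIs for the X-linked and 44.4 UMIs for the autosomal silent genes. A larger part of the autosomal sum was thus present without DAC, and the ratios of 2.93 and 1.32 do not have the same background. X-linked genes that were not silent had a ratio of 1.13, and autosomal genes that were not silent had a ratio of 1.04. Among genes detected in 10% or more of VCX-none cells, 13 of 14 X-linked silent genes were 2-fold or more higher, against 4 of 71 autosomal silent genes, 6 of 206 other X-linked genes, and 48 of 7385 other autosomal genes. The median log2 ratios of these classes were 1.28, 0.20, 0.12, and 0.04.

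**Figure D3:**
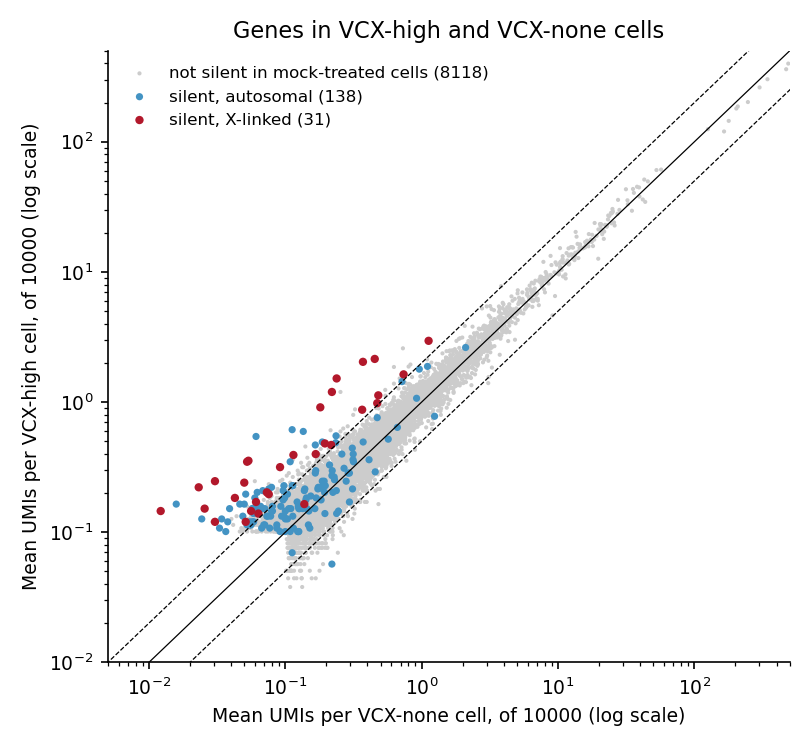
Mean UMIs per cell at 10000 UMIs in VCX-none (horizontal axis) and VCX-high cells (vertical axis), both on log scales, for genes detected in 10% or more of the cells of either group. Dashed lines mark 2-fold ratios, and the X-linked silent genes (dark red) lie mostly above the upper line, while genes near the lower left corner passed through 1 group only.

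The 14 X-linked silent genes lay far from the *VCX* genes. They were *PAGE1*, *PAGE2*, *PAGE2B*, *PAGE5*, *GAGE12H*, *SMIM10*, *FMR1NB*, *MAGEA4*, *MAGEA6*, *MAGEA12*, *PNMA5*, *PNMA6E*, *TKTL1*, and *CTAG2*, and *SMIM10* was the gene that did not reach a 2-fold ratio. The PAGE and GAGE genes lie in Xp11, and *FMR1NB* and the MAGEA, PNMA, *TKTL1*, and *CTAG2* genes lie in Xq27 and Xq28. Among X-linked genes that were not silent, *DHRSX* and *ASMTL* had log2 ratios of 1.44 and 1.23. *DHRSX* was detected in 47.5% of VCX-high, 20.9% of VCX-none, and 9.08% of mock-treated cells, and *ASMTL* in 35.4%, 20.3%, and 28.1%.

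**Figure D4:**
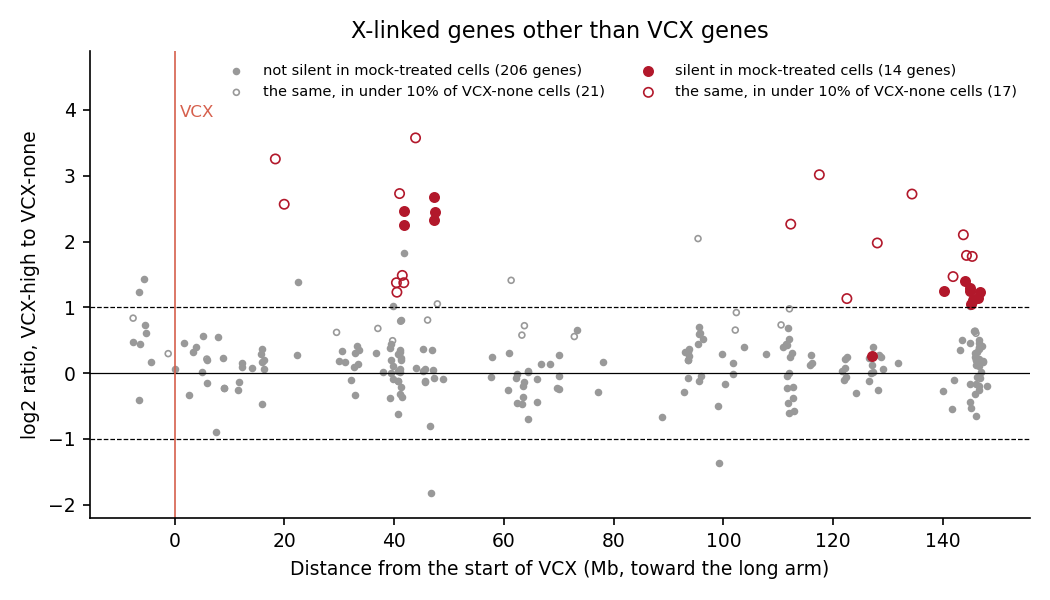
Log2 ratio of VCX-high to VCX-none cells (vertical axis) of X-linked genes by their distance from the start of *VCX* in Mb (horizontal axis), with silent genes in dark red. Open symbols are genes detected in under 10% of VCX-none cells, which passed only through VCX-high cells, and of the 14 filled dark red symbols 13 lie above the 2-fold line.

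X-linked cancer-testis genes were higher as a group in VCX-high cells. Of 77 listed genes without *VCX* genes, 14 were detected in 10% or more of VCX-none cells. Of these, 12 were 2-fold or more higher, none was 2-fold or more lower, and the median log2 ratio was 1.34, against 0.923% of all genes higher and a median of 0.04. The PAGE genes, *GAGE12H*, *MAGEA4*, *MAGEA6*, *MAGEA12*, and *CTAG2* are also among the X-linked silent genes above, so the counts are not separate results. *MAGEB2* and *MAGEA3*, which were detected in 47.1% and 41.6% of mock-treated cells, had the lowest log2 ratios of the 14 genes, at 0.28 and 0.45. The 77 genes together had a mean of 21.3 UMIs per VCX-high and 7.56 UMIs per VCX-none cell, a ratio of 2.83, and 1.35 UMIs per mock-treated cell. The quartiles of this sum were 9 and 29.8 UMIs in VCX-high cells and 2 and 10 UMIs in VCX-none cells, so the groups overlapped. At least 10 of these genes were detected in 62 of 158 VCX-high cells (39.2%, 31.6–47.3%) and 56 of 819 VCX-none cells (6.84%, 5.21–8.79%). Conversely, 2 or fewer were detected in 6.96% of VCX-high and 44.7% of VCX-none cells.

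Among the 14 genes detected in 10% or more of VCX-none cells, the PAGE genes had the highest ratios. *PAGE2B* was detected in 46.2% of VCX-high, 12.1% of VCX-none, and 0.0720% of mock-treated cells, with a log2 ratio of 2.67 (2.39 to 2.95). *PAGE1* was detected in 50% of VCX-high and 13.9% of VCX-none cells, with means of 2.04 and 0.371 UMIs and a log2 ratio of 2.46 (2.23 to 2.69). *PAGE5* and *PAGE2* had log2 ratios of 2.44 and 2.33. Each of the 4 genes had 10 or 11 UMIs in its highest VCX-high cell and no UMI in 50% or more of the VCX-high cells. *GAGE12H* had 2.24 and *GAGE2A* had 1.83, but GAGE genes are near-identical copies and the assignment of their reads is as uncertain as that of *VCX* reads. The same holds for *PAGE2* and *PAGE2B*.

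Antigens of the MAGE family and other germline proteins among the 14 genes had log2 ratios of 1.39 and less. *MAGEA4*, whose protein is a target of T-cell therapies, was detected in 58.2% of VCX-high and 32.0% of VCX-none cells and in no mock-treated cell, with means of 2.96 and 1.12 UMIs and a log2 ratio of 1.39 (1.23 to 1.56). *MAGEA12* and *MAGEA6* had log2 ratios of 1.30 and 1.25. *CTAG2*, which encodes the LAGE-1 antigen, had 1.23, with detection in 32.9% and 15.5% of cells. *TKTL1*, a transketolase-like gene, had 1.15, with detection in 47.5% and 25.8% of cells. With 3 UMIs or more as the threshold, *MAGEA4* was upregulated in 43.7% of VCX-high cells (35.8–51.8%) and 15.9% of VCX-none cells (13.4–18.6%).

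Genes with rarer transcripts gave the highest ratios. By the rule for named genes, 15 genes with the highest ratio were listed among those detected in 10% or more of the cells of either group, and they were silent in mock-treated cells. *GSPT2*, which encodes a translation termination factor, had 23 UMIs in 158 VCX-high and 10 UMIs in 819 VCX-none cells, a log2 ratio of 3.58 (2.45 to 4.81). *MAGEB6* had 35 and 19 UMIs (3.26), *TEX13C*, a testis-expressed gene, had 39 and 25 UMIs (3.02), *MAGEC2* had 56 and 44 UMIs (2.72), and *MAGEB10* had 24 and 21 UMIs (2.57). *PCSK1N*, which encodes an inhibitor of a prohormone convertase, had 55 and 43 UMIs (2.73), and *RHOXF1*, a homeobox gene of germ cells, had 38 and 41 UMIs (2.26). These 7 genes and the 4 PAGE genes are X-linked. The autosomal genes among the 15 were *LINC01602* (3.37), *AKR1B15*, an aldo-keto reductase gene (3.16), *AC093001.1* (2.45), and *DYDC2* (2.37). *AKR1B15* had 86 UMIs in 24 VCX-high cells, of which 24 were in 1 cell. The 11 genes other than the PAGE genes were detected in at most 6.11% of VCX-none cells. They passed the filter only through VCX-high cells, which favored higher ratios, so their ratios support nothing further.

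The number of silent genes detected per cell was higher in cells with more *VCX* UMIs. The median number of X-linked silent genes detected at 10000 UMIs was 4 in 819 cells without a *VCX* UMI, 5 in 288 cells with 1 or 2, 9 in 28 cells with 3 to 9, 10 in 62 cells with 10 to 39, and 13 in 96 cells with 40 or more. The median number of autosomal silent genes was 86, 87, 89.5, 105.5, and 113 in the same classes. At 3 to 9 *VCX* UMIs, the median of the X-linked genes was 9 against 4, and that of the autosomal genes was 89.5 against 86. Quartiles of neighboring classes overlapped for both kinds of gene. The median depth of the classes before thinning was between 40840 and 50209 UMIs and was highest in the cells with 40 or more *VCX* UMIs. Of the 200 silent genes with the highest mean in DAC-treated cells, 196 were not *VCX* genes, and a median of 31 of them was detected per VCX-high cell (quartiles 24 and 37) and 22 per VCX-none cell (quartiles 17 and 28).

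**Figure D5:**
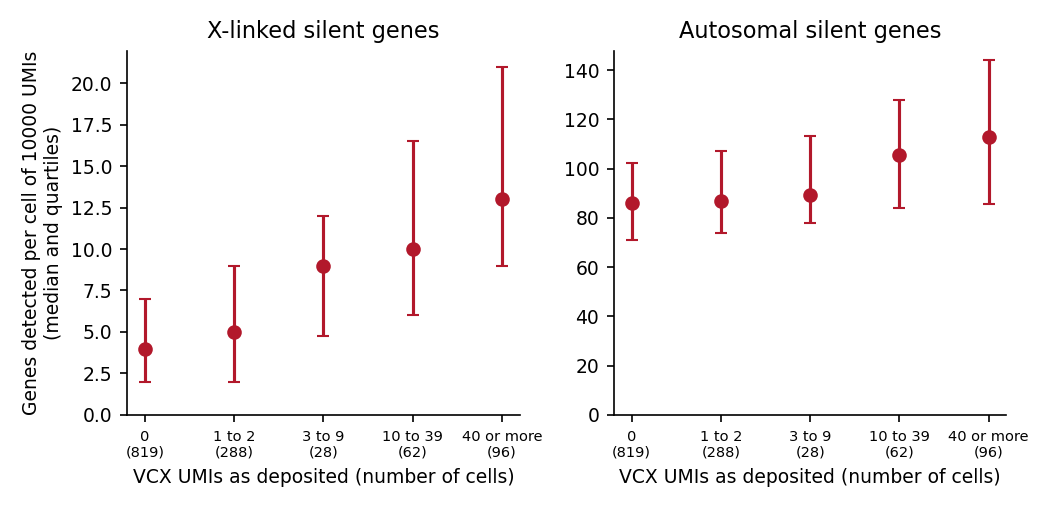
Number of X-linked (left) and autosomal (right) silent genes detected per cell of 10000 UMIs (vertical axes, median and quartiles), by the *VCX* UMIs of the cell as deposited (horizontal axes, number of cells in parentheses). The lowest and highest medians were 4 and 13 X-linked genes and 86 and 113 autosomal genes.

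Cells chosen by another X-linked gene also had more UMIs of X-linked silent genes. The same sums were computed for cells chosen by 10 or more UMIs of *MAGEA4*, another X-linked gene, against cells with none, leaving out *MAGEA4* and the *VCX* genes. In the 283 cells with *MAGEA4*, X-linked silent genes had 4.32 times and autosomal silent genes 1.28 times the mean of the 593 cells without. In cells chosen by *MEG3*, an imprinted gene on chromosome 14, both ratios were close, at 1.28 and 1.24, for 380 cells against 454 cells. The 3 sets of cells overlap, and both comparisons were chosen after the values were seen. *MEG3* itself was upregulated in 31.6% of VCX-high (24.5–39.5%) and 24.9% of VCX-none cells (22.0–28.0%).

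Autosomal germline, imprinted, and tumor-suppressor genes had lower medians than the X-linked silent and X-linked cancer-testis genes. None of the 11 autosomal germline genes detected in 10% or more of VCX-none cells was 2-fold or more higher or lower, and their median log2 ratio was 0.19. *PRAME*, a cancer-testis gene on chromosome 22, had 0.49 (0.15 to 0.81), and *GTSF1*, a piRNA pathway gene, had -0.02 (-0.22 to 0.17). *PRAME* was detected in 15.4% and *GTSF1* in 79.8% of mock-treated cells. Chromosome and silence in mock-treated cells are not told apart in this contrast. None of 9 imprinted genes was past 2-fold (median, 0.17), and none of 9 tumor-suppressor and WNT antagonist genes was (median, -0.05). As 0.923% of all genes were 2-fold or more higher and 1.2% lower, finding none in lists this short is not read as a result. *SFRP1*, a WNT antagonist, had 3 or more UMIs in 1 VCX-high and 3 VCX-none cells. Of genes activated by DUX4, which are normally transcribed at the cleavage stage of the embryo, *KHDC1L* had a log2 ratio of 0.88 but was detected in 8.55% of VCX-none cells and passed the filter only through VCX-high cells, and *H3.Y* had 165 UMIs in VCX-none cells, of which 101 were in 1 cell, and 2 UMIs in VCX-high cells.

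Proliferation genes were lower in VCX-high cells, mostly by less than 2-fold. All but 1 of 36 S-phase genes and all but 2 of 40 G2/M genes had log2 ratios under 0, with medians of -0.40 and -0.52. Of all 7695 genes, 4221 had log2 ratios above 0. However, 2 S-phase genes and none of the G2/M genes were 2-fold or more lower, beside 1.2% of all genes. *MKI67*, a marker of cycling cells, was detected in 50% of VCX-high and 70.1% of VCX-none cells, with a log2 ratio of -0.69 (-0.85 to -0.54). *CENPF* had -0.83, *TYMS* -0.47, and *PCNA* -0.40. *TUBB4B*, which is on the G2/M list and is also transcribed outside mitosis, had 0.31. The sum of the S-phase genes had a median of 15 UMIs in VCX-high, 24 in VCX-none, and 5 in mock-treated cells, and that of the G2/M genes had 25, 43, and 6. The quartiles of the S-phase sum were 7 and 28 in VCX-high and 9 and 37.5 in VCX-none cells. The 2 S-phase genes were *UNG*, a uracil-DNA glycosylase gene (-1.30), and *UHRF1* (-1.14), which encodes the protein that brings DNMT1 to hemimethylated DNA. With another random thinning *UNG* had -0.82 and *UHRF1* had -0.97, under 2-fold.

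Genes of DNA methylation and of DAC metabolism had log2 ratios on both sides of 0, with 5 of 12 and 3 of 13 measured genes above 0. None of them was 2-fold or more higher. *DNMT1*, the maintenance methyltransferase and target of DAC, was detected in 71.5% of VCX-high and 79.0% of VCX-none cells, with a log2 ratio of -0.28 (-0.46 to -0.10). *HELLS*, a chromatin remodeler needed for methylation, had -0.96 (-1.31 to -0.63). The median of the 12 methylation genes was -0.04, and 1 of them, *UHRF1*, was 2-fold or more lower, beside 1.2% of all genes. The highest were *MBD1*, which encodes a protein that binds methylated DNA, at 0.62, and *ZBTB38*, which encodes a zinc finger protein that binds methylated DNA, at 0.54. Of 13 genes of uptake and activation of DAC, 1 was 2-fold or more lower, beside the same 1.2%. Their median was -0.46, but it was -0.20 with another random thinning, -0.26 without thinning, and -0.09 after thinning to 5000 UMIs. The lower gene was *DCK*, the kinase that activates DAC, at -1.07, with 10 UMIs in VCX-high cells, and it had -1.24 with another random thinning, -0.48 without thinning, and 0.00 after thinning to 5000 UMIs. *SLC29A1*, a nucleoside transporter gene, had -0.95, and -0.23 with another random thinning. *RRM2* and *DCTPP1* had -0.70 and -0.76, whereas *CMPK1*, a nucleotide kinase gene, had 0.37, *CDA*, the deaminase that inactivates DAC, had 0.23, and *NME1* had 0.01.

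Interferon-stimulated and p53 target genes had medians near 0. Among 23 interferon-stimulated genes, 1 was 2-fold or more higher (*ISG20*, 1.10) and the median was 0.09. *ISG15* had 0.15, and *IFI27* was upregulated in 70.9% of VCX-high (63.1–77.8%) and 57.8% of VCX-none cells (54.3–61.2%). Among 26 p53 targets, 1 was 2-fold or more higher (*BBC3*, 1.01, but 0.13 with another random thinning) and the median was -0.02. Since 0.923% of all genes were 2-fold or more higher, 1 gene in a list of 23 or 26 is not read as a difference. *CDKN1A* had 0.11, and *GDF15*, a stress-induced cytokine gene, had -0.99 and was detected in 87.1% of mock-treated cells. The 20 housekeeping genes had a median of -0.05, and their sum had a ratio of 1.00. The 8 colon epithelial genes had a median of -0.22, with *KRT8* at -0.64 and *KRT18* at -0.22.

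Few abundant genes were past a 2-fold ratio. Of 1246 genes that averaged at least 1 UMI per VCX-none cell, 2 were 2-fold or more higher and 1 was lower, and these genes were named after the values were seen. The higher genes were *MAGEA4*, described above, and *TIMP1*, an X-linked inhibitor of metalloproteinases that was not silent in mock-treated cells. *TIMP1* was detected in 93.7% of VCX-high and 88.4% of VCX-none cells, with means of 7.77 and 3.83 UMIs and a log2 ratio of 1.02, and with another random thinning its log2 ratio was 0.95. The gene that was lower was *S100A4*, a calcium-binding protein gene, with means of 1.40 and 3.08 UMIs and a log2 ratio of -1.14.

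When the mean could reach 1 UMI in either group, 1413 genes passed and 19 were 2-fold or more higher. Of these, 17 averaged under 1 UMI in VCX-none cells, passed only through VCX-high cells, and had to be higher there, so that their number and ratios support nothing further. They were 7 X-linked genes named above (*PAGE1*, *PAGE2B*, *PAGE5*, *GAGE12H*, *GAGE2A*, *CTAG2*, and *TKTL1*) and 10 autosomal genes. Among the latter, *JUN*, a transcription factor gene, had a log2 ratio of 1.22, *PPP1R15A* 1.20, *BTG1* 1.19, and *DUSP5* 1.15. *MT1X*, a metallothionein gene, had 1.57, with 64 UMIs in 1 VCX-high cell, and *DDIT3*, a transcription factor gene of the integrated stress response, had 2.24. *DDIT3* was detected in 18.99% of VCX-high, 14.41% of VCX-none, and 63.4% of mock-treated cells, and 60 of its 189 UMIs were in 1 VCX-high cell. When the 1% of cells with the most UMIs of each gene was left out of each group, *DDIT3* had 1.64 and *MT1X* had 1.28. *UPP1*, *TUBA1A*, *LINC00958*, and *AC245595.1* had 1.23, 1.14, 1.00, and 1.05. With another random thinning *TUBA1A*, *LINC00958*, and *AC245595.1* had 0.99, 0.82, and 0.89, under 2-fold, and *UPP1* had 1.40.

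The 10 genes with the lowest ratios rested on few molecules. Each was detected in at most 6.33% of VCX-high cells and passed the filter only through VCX-none cells, so the filter favored a lower ratio. They were *HIST1H1B* (-1.95), *FXYD3* (-1.92), *GNL3L* (-1.82), *HAS3* (-1.82), *BICDL2* (-1.81), *AQP3* (-1.80), *CIT* (-1.73), *TFAP2A* (-1.58), *PDE4B* (-1.57), and *DCAKD* (-1.57), and each had 6 to 11 UMIs in the 158 VCX-high cells at equal depth. With another random thinning, all 10 were nearer to 0, and *TFAP2A* had -0.03, *GNL3L* -0.17, and *BICDL2* -0.43. On all UMIs, without thinning, *GNL3L* had -0.46, *TFAP2A* had -0.46, and the other 8 had between -0.70 and -1.46. Among better measured genes that were 2-fold or more lower, which were chosen after the values were seen, were *CEP55*, a gene of cell division (-1.05), *S100A14* (-1.55), and *SUSD2* (-1.12). With another random thinning *S100A14* had -1.25, and *CEP55* and *SUSD2* had -0.72 and -0.96, under 2-fold.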

How the data were processed

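The deposited values were raw UMI counts of 33538 genes per cell, which the authors obtained by running Cell Ranger with the hg38 genome, for 1 mock-treated library of 49911689 UMIs in 1783 cells and 1 DAC-treated library of 59046165 UMIs in 1751 cells. The annotation release and any filter on cells are not given in the sources used here. All deposited cells were kept, and doublets were not called.

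Analysis was in Python 3.11.15 (pandas 2.3.3, numpy 2.4.6, and scipy 1.17.1), with plots by matplotlib 3.10.9. A silent gene was defined as in the study. Positions were those of GENCODE release 44, which held 33113 of the 33538 identifiers. A gene at 0 in a group was given 3 counts over the group. A single X-linked gene was left out of the X-linked sets. Named genes were the *VCX* genes, the 15 highest and 10 lowest ratios among genes detected in 10% or more of the cells of a group, the 3 genes with the most UMIs of each of 15 lists, the Xp22.3 neighbors that passed this filter, and *MAGEA4*, *MEG3*, *SFRP1*, *H3.Y*, and *IFI27*. Genes named outside this rule were chosen after their values were seen. The threshold, the cells, and the lists were chosen with earlier results of these data known. The silence classes, the filter on VCX-none cells, and the filter on a mean of 1 UMI were added after the data were seen. Ratios and their intervals were tested on simulated data.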

Additional observations from a re-analysis of the deposited data

How the results depend on the processing

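Each choice was changed alone, for the sets of genes and the 32 named genes past 2-fold, which include the 4 *VCX* genes that the choice of cells fixes. The named genes kept their direction under every setting except thinning to 5000 UMIs, where *CIT* had a log2 ratio of 0.073 and *TFAP2A* of 0.20. The cause was not tested. With another random thinning, without thinning, and after thinning to 5000 UMIs, 26 of the 32 were still past 2-fold, and the 6 that were not were each time among the 10 with the lowest ratios. Among genes detected in 10% or more of VCX-none cells, the median of the X-linked cancer-testis genes was between 1.22 and 1.42 and that of the X-linked silent genes between 1.20 and 1.48, and 9 to 12 and 11 to 13 of 14 genes were past 2-fold. With the cells of most UMIs of each gene left out, 31 named genes had a value.

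The number of genes 2-fold or more lower was 207 after thinning to 5000 UMIs, 158 with the rule applied after thinning, and 173 with 20% or less mitochondrial UMIs. Without thinning 102 genes were higher and 20 lower, with a filter of 5% of cells 429 and 233, without a filter 2573 and 319, and with a mean of 1 UMI or more 19 and 1. With the filter on VCX-none cells 71 were higher and 92 lower, which became 188 lower after thinning to 5000 UMIs, 46 higher and 20 lower without thinning, 158 lower with the rule after thinning, and 129 higher and 172 lower with 20% or less mitochondrial UMIs. Of genes averaging at least 1 UMI in VCX-none cells, 2 were higher and 1 lower. By construction, the filters change the genes counted. The share of VCX-high cells was 11.1% at 5 UMIs or more, 7.60% at 20 or more, 12.2% of cells with 10000 UMIs or more, and 7.79% of cells with 20% or less mitochondrial UMIs. The share of cells with a *VCX* UMI that had 3 to 9 was 37.1% after thinning to 5000 UMIs.

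The median log2 ratio of the G2/M genes was -0.60 without thinning, -0.60 with VCX-none cells weighted by depth, -0.43 at 20 *VCX* UMIs or more, -0.47 with the rule after thinning, and -0.39 with 20% or less mitochondrial UMIs. The median of X-linked genes that were not silent was 0.019 without thinning. That of autosomal genes that were not silent was 0.052 after thinning to 5000 UMIs, 0.0071 without thinning, 0.052 and 0.075 at 5 and 20 *VCX* UMIs, and 0.032 with weighting by depth. VCX-high cells had 2 more of the top silent genes at 3 UMIs and 18 more without thinning, in place of 9.

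Leaving out a replicate was not possible with 1 library per condition. No paired analysis was possible because each condition had 1 library and the comparison was between cells of 1 library. Ratios of genes with few UMIs are limited by depth.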
